A study of Homo sapiens with 6 samples.

Results

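Human chromosomes 17 and 22 were described by the open chromatin regions that ATAC-seq found on them in 3 B-lineage acute lymphoblastic leukemia lines. The members are all merged regions on these chromosomes, 3781 on chromosome 17 and 1789 on chromosome 22, together 5570 of 130887 regions on chromosomes 1 to 22 and X. They were chosen by position alone, after peaks of 12 peak lists that overlapped by at least 1 bp had been joined. The groups, 1 sample each, were RS4;11 with sh2 and with NT, SEM with sh2 and with NT, and the line labelled RCH with sh2 and with NT. RCH is taken as RCH-ACV, which the growth protocol lists. The labels do not spell out sh2 and NT, which are read as an shRNA against NSD2 and a non-targeting control. The labels give bone marrow as the tissue and no treatment. RS4;11 and SEM are known to carry a KMT2A-AFF1 fusion. The knockdown rests on a single shRNA, and its depth is not given in the sources used here. The series title concerns a point mutation of NSD2, and which lines carry it is not given in the labels. A sample has 2 lists, taken as 2 libraries. Whether these are separate cultures is not stated, so their spread may be technical, and no test of sh2 against NT was possible within a line. Markers of cell types were not checked, since no gene positions of the files' build were used.

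ATAC-seq uses the Tn5 transposase to cut accessible DNA, so that promoters, enhancers and other nucleosome-poor sites give peaks of reads. NSD2 adds methyl groups to histone H3 at K36, a mark that spreads over wide stretches of active chromatin and that hinders the repressive mark which Polycomb sets at K27. Gene-rich chromosomes hold many promoters with CpG islands, which tend to be open in most cell types, whereas gene-poor chromosomes hold more open sites that differ between cell types. Among the genes that the RefSeq table of GRCh38 places on chromosome 17 are IKZF3, a lymphoid transcription factor, and CD79B, a subunit of the B-cell receptor. On chromosome 22 it places IGLL1 and VPREB1, the surrogate light chains of the pre-B receptor, and BCR. No region was assigned to a gene, because the lists use hg19 and no hg19 annotation or sequence was used, so neither genes nor sequences of single regions are given.

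The label gene-dense held for both. By that table chromosome 17 has 1169 protein-coding genes, or 14.4 per Mb of the span covered by its hg19 regions, and chromosome 22 has 451, or 13.2 per Mb. They rank 2 and 3 of 23 chromosomes, after chromosome 19. Promoters of RefSeq genes, taken as 300 bases around the start on GRCh38 and not joined to the regions, had a median GC content of 62.0% on chromosome 17 (1639 promoters) and 63.0% on chromosome 22 (668), against 58.3% on the other chromosomes with promoter sequences.

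Open regions were wider and shared by more lists here than on the pooled other chromosomes. Chromosome 19 went further in each of these measures, with a median width of 458 bp and 31.1% of its regions open in all 12 lists. Chromosome 22 held 52.4 regions per Mb, rank 3 among 23 chromosomes, and chromosome 17 held 46.6, rank 7. The median gap between neighbouring regions was 8.58 kb on chromosome 22 and 9.23 kb on chromosome 17, ranks 2 and 3 from the smallest after chromosome 19 (8.50 kb). The median width was 401 bp on chromosome 22 and 409 bp on chromosome 17, against 357 bp on the other chromosomes. In all, the regions covered 0.888 Mb of chromosome 22 and 1.95 Mb of chromosome 17.

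Of the chromosome 17 regions, 943 had a peak in all 12 lists, a share of 24.9% (exact 95% binomial interval 23.6 to 26.4). On chromosome 22 these were 388 regions, or 21.7% (19.8 to 23.7), and on the other chromosomes 16.1% (15.9 to 16.3). Chromosome 17 ranked 2 and chromosome 22 ranked 4 of 23 by this share, with chromosome 16 (23.3%) between them. Intervals cover counting error only. Regions with a peak in 1 list were 22.4% on chromosome 17 and 22.02% on chromosome 22, against 28.6% on the other chromosomes. In number of lines, 43.8% of chromosome 17 and 43.7% of chromosome 22 regions were open in each of the 3 lines, against 34.8% elsewhere. These shares are for lists as deposited. After cutting each line's lists by fold to its shortest, 8.33%, 8.66% and 17.7% of chromosome 17, chromosome 22 and other regions had no peak. Of the same regions, 20.6%, 19.8% and 19.2% then had a peak in 1 list, and 20.7%, 17.6% and 14.6% in all 12 lists. Regions left with no peak count in these shares and were more frequent elsewhere. The shares at 1 list therefore cannot show whether the lower share was kept among regions still open. The plot of breadth gives the classes between 1 and 12 lists.

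**Figure D1:**
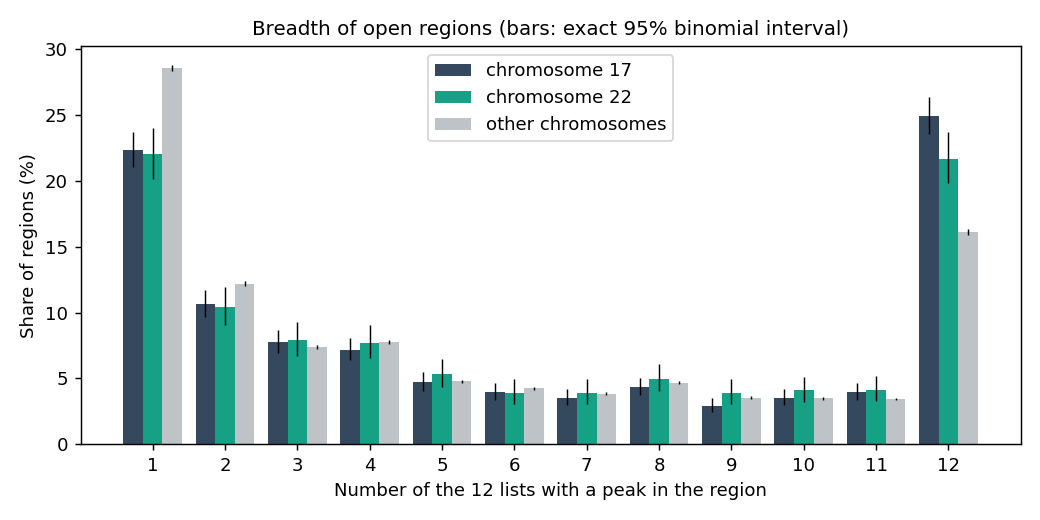
Share of regions (y axis, %) by the number of the 12 lists that have a peak in the region (x axis), for chromosome 17, chromosome 22 and the other chromosomes, as bars with exact 95% binomial intervals. Lists are as deposited. Chromosomes 17 and 22 have taller bars at 12 lists (24.9% and 21.7% against 16.1%) and shorter ones at 1 list (22.4% and 22.02% against 28.6%). With lists of equal length, not drawn, the share at 1 list was 20.6% and 19.8% against 19.2% of all regions, including those left with no peak.

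The first question was how many peaks lay on these chromosomes with and without the knockdown. It varied less between lists than on the other chromosomes. Over the 12 lists the peaks of all chromosomes ranged from 41594 to 84794 per list, 2.04-fold, with a coefficient of variation of 19.7%. On chromosome 17 they ranged from 1922 to 2303, 1.20-fold, with a coefficient of variation of 6.96%, the lowest of the 23 chromosomes. On chromosome 22 they ranged from 782 to 1126, 1.44-fold, with 10.8%, rank 4 from the lowest.

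In RS4;11, chromosome 17 had 1962 and 2036 peaks with sh2, against 2236 and 1941 with NT. Chromosome 22 had 999 and 1027 with sh2, against 1126 and 998 with NT. The lists of the shRNAs overlapped in number on each chromosome, with mean changes of -4.29% and -4.61%, while the mean change on the other chromosomes was -22.1%.

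In RCH, chromosome 17 had 2000 and 1929 peaks with sh2, against 1950 and 1922 with NT, which overlap. Chromosome 22 had 942 and 856 with sh2, against 783 and 782 with NT, so that both sh2 lists were longer there, by 14.9% in the mean. On the other chromosomes of RCH the mean change was -25.9%. Covered sequence on chromosome 22 was 18.7% larger with sh2.

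In SEM, chromosome 17 had 2211 and 2055 peaks with sh2, against 2303 and 2257 with NT. Chromosome 22 had 970 and 888 with sh2, against 1012 and 986 with NT. Each sh2 list was below each NT list, with mean changes of -6.45% and -7.01%, while the other chromosomes of SEM had 17.6% more peaks with sh2.

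Set against the whole list, the share of peaks on these chromosomes was higher with sh2 in RS4;11 and RCH and lower with sh2 in SEM. In RS4;11, chromosome 17 held 3.19% and 3.21% of the peaks with sh2, against 2.64% and 2.61% with NT. In RCH it held 4.52% and 4.64% with sh2, against 3.45% and 3.37% with NT. In SEM it held 3.44% and 3.30% with sh2, against 4.28% and 4.10% with NT. The sh2 and NT lists did not overlap in this share in any line.

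Chromosome 22 followed the same order. It held 1.62% and 1.62% with sh2, against 1.33% and 1.34% with NT, in RS4;11. In RCH it held 2.13% and 2.06% with sh2, against 1.39% and 1.37% with NT, the largest log2 ratio of the 6 comparisons, while the gap in percentage points was larger on chromosome 17 of RCH and of SEM. In SEM it held 1.51% and 1.43% with sh2, against 1.88% and 1.79% with NT. The 2 lists of a sample never differed by as much as sh2 and NT of the same line.

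**Figure D2:**
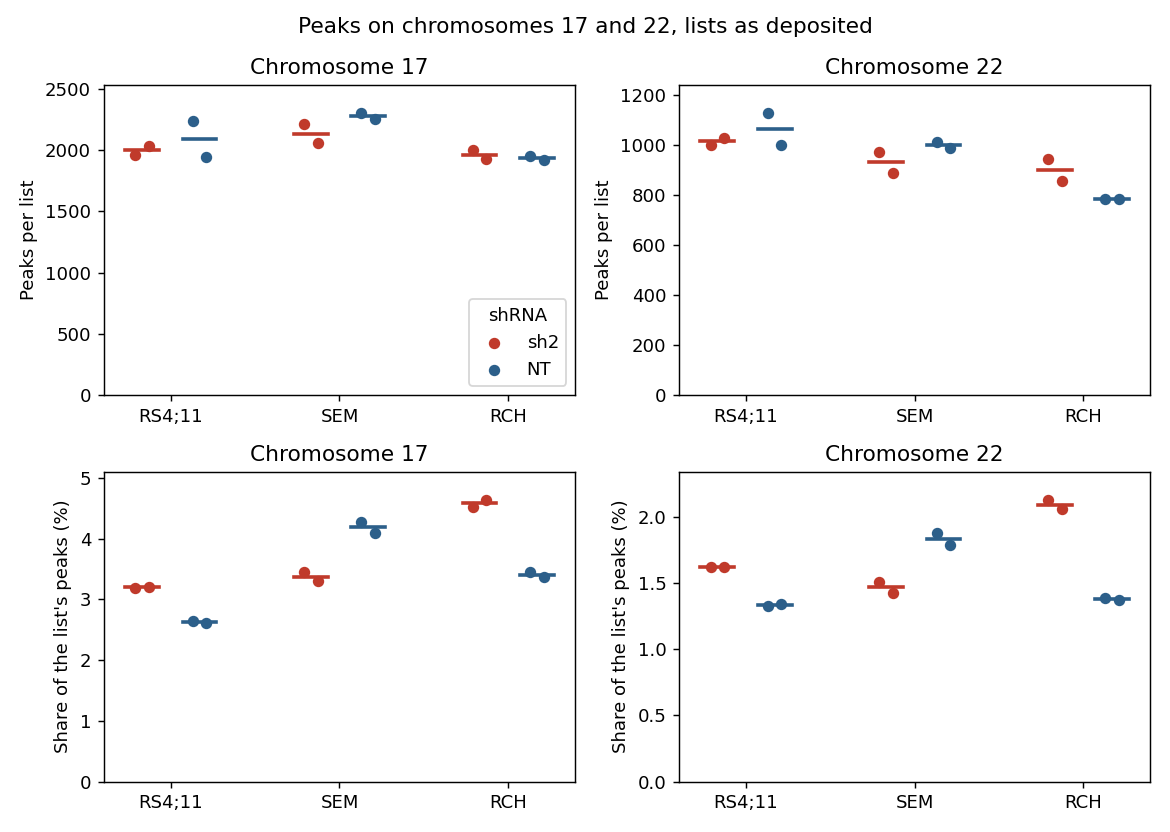
Number of peaks per list (upper panels) and share of the list's peaks in percent (lower panels) on chromosomes 17 and 22, lists as deposited, with 1 point per list and a bar at the mean of the 2 lists of a sample, sh2 left of NT in each line. Numbers stay between 1922 and 2303 on chromosome 17, whereas the shares of sh2 lie above those of NT in RS4;11 and RCH and below them in SEM.

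The log2 ratio of the share on chromosome 17, sh2 over NT, was 0.29 in RS4;11. It was 0.43 in RCH and -0.31 in SEM. The 3 lines averaged 0.13 ± 0.39 (SD), with p = 0.75 by an exact sign-flip test, two-sided. Chromosome 22 had ratios of 0.28 in RS4;11, 0.60 in RCH and -0.32 in SEM, which averaged 0.19 ± 0.47 (SD), with p = 0.75 by the same exact test. Over both chromosomes the mean of 0.15 became 0.38 without SEM, 0.082 without RS4;11 and -0.016 without RCH. The smallest p that 3 lines allow is 0.25, so no common effect could have passed. Among the 23 chromosomes, 17 and 22 ranked 2 and 3 by this ratio for RS4;11, 3 and 2 for RCH, and 22 and 23 for SEM. Cutting the lists of each line to the length of the shortest by fold enrichment (61551 peaks in RS4;11, 53837 in SEM and 41594 in RCH) left the ratios at 0.27, 0.42 and -0.35 on chromosome 17 and at 0.27, 0.64 and -0.36 on chromosome 22, in the order RS4;11, RCH and SEM.

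The lines themselves also differed. With sh2, the share on chromosome 17 was highest in RCH, then SEM, then RS4;11, and on chromosome 22 highest in RCH, then RS4;11, then SEM. With NT, SEM was highest, then RCH, then RS4;11 on each chromosome. Lists of neighbours in these orders did not overlap, although RCH and RS4;11 with NT were close on chromosome 22 (1.39% and 1.37% against 1.33% and 1.34%).

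In windows of 5 Mb, chromosome 17 fell into 17 windows and chromosome 22 into 8. On chromosome 17 the window at 75 to 80 Mb held most regions (392) and that at 20 to 25 Mb fewest (72). In that window the regions ended at 22261726, and the next began at 25335139, on the far side of a stretch without regions. On chromosome 22 the window at 35 to 40 Mb held most (329) and that at 50 to 55 Mb, which the chromosome only partly fills, fewest. Its first region began at 17081899.

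The difference in share between sh2 and NT ran along nearly the whole of both chromosomes. A higher share need not mean more peaks. In RS4;11 the window at 25 to 30 Mb of chromosome 17 had 124 and 126 peaks with sh2, against 152 and 122 with NT. That at 0 to 5 Mb had more with sh2, 175 and 186 against 157 and 152. In RS4;11 both sh2 lists had a higher share than both NT lists in 23 of 25 windows, where 39.2% of all 592 windows of the genome did so, and a lower one in 1, where 44.9% did so. In RCH these were 23 windows and 1 window, against 31.2% and 49.2% of all windows. In SEM both sh2 lists were lower in 24 windows, against 28.5% of all windows, and higher in 1, against 44.6%. Over the 25 windows RS4;11 had a median log2 ratio of 0.26, RCH of 0.42 and SEM of -0.33. With lists of equal length, RS4;11 had 20 windows with both sh2 lists higher and 1 lower, against 30.7% and 44.9% of all windows. RCH had 22 and 1, against 27% and 53%, and SEM had 1 and 24, against 46.1% and 28.4%.

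The window at 50 to 55 Mb of chromosome 17 stood out from its neighbours in RS4;11 and RCH. It gave -0.70 in RS4;11, -0.60 in RCH and -0.26 in SEM, so that the share was lower with sh2 in all lines. In SEM it did not stand out, since the windows on either side gave -0.36 and -0.34. In RS4;11 it held 32 and 41 peaks with sh2, against 84 and 67 with NT. In RCH it held 27 and 31 peaks with sh2, against 56 and 61 with NT. Neither line's lists overlapped there. In SEM it held 51 and 43 peaks with sh2, against 46 and 51 with NT, which overlap in number. This window had the lowest share of regions open in all 12 lists, 11.5%, and the highest share open in 1 list, 29.5%, of the 25 windows.

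The window at 65 to 70 Mb of chromosome 17 was the only one that SEM placed higher with sh2, at 0.15 (99 and 100 peaks with sh2, against 76 and 79 with NT). RS4;11 gave 0.10 and RCH -0.07 there, and with equal lists RS4;11 turned to -0.02. Of its regions 18.9% were open in all 12 lists.

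The largest ratios of chromosome 17 in RS4;11 and RCH lay toward its ends, at 0 to 5 Mb (0.57 and 0.69) and 75 to 80 Mb (0.56 and 0.66). The smallest besides the window at 50 to 55 Mb were -0.02 at 20 to 25 Mb in RS4;11 (0.07 with equal lists) and -0.07 at 65 to 70 Mb in RCH. In SEM the smallest were -0.41 at 80 to 85 Mb and -0.38 at 5 to 10 Mb, and the largest after 0.15 was -0.22 at 60 to 65 Mb.

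On chromosome 22, RS4;11 was largest at 40 to 45 Mb (0.37) and 50 to 55 Mb (0.35) and smallest at 15 to 20 Mb (0.14) and 25 to 30 Mb (0.18). RCH was largest at 45 to 50 Mb (0.72) and 40 to 45 Mb (0.70) and smallest at 15 to 20 Mb (0.35) and 30 to 35 Mb (0.41). In SEM, 20 to 25 Mb (-0.49) and 50 to 55 Mb (-0.41) were smallest, and 30 to 35 Mb (-0.22) and 40 to 45 Mb (-0.23) largest. No window of chromosome 22 went against the rest of the chromosome in any line.

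**Figure D3:**
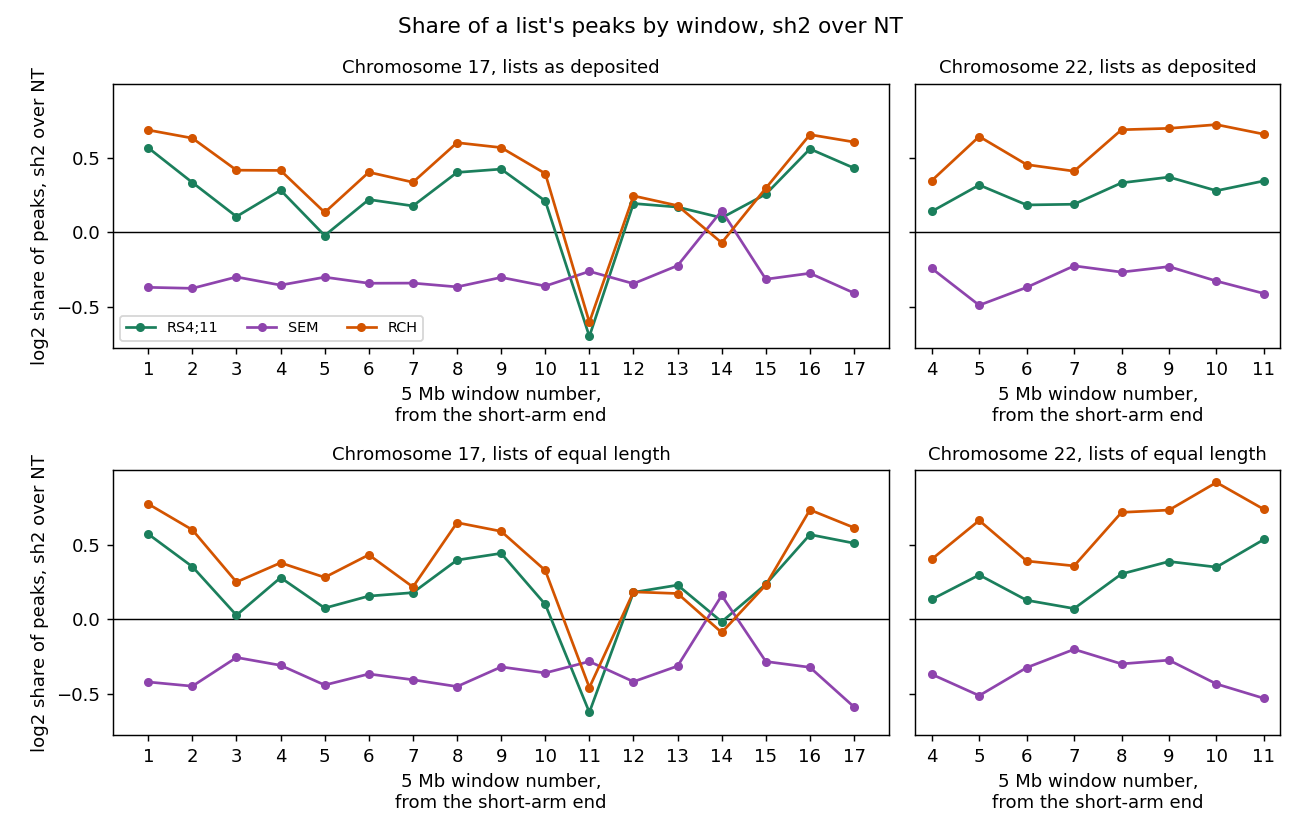
Log2 ratio of the share of a list's peaks, sh2 over NT (y axis), in 5 Mb windows numbered from the short-arm end (x axis), for chromosome 17 (left) and chromosome 22 (right), with lists as deposited (top) and cut to equal length (bottom), 1 line per cell line and means of 2 lists per sample. RS4;11 and RCH lie above 0 and SEM below it in most windows, and window 11 of chromosome 17, at 50 to 55 Mb, dips to -0.70 in RS4;11 and -0.60 in RCH.

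A fit over all windows, with the sample as the unit, tested only for a shift with sh2 that the lines share. It has no term for an shRNA effect that differs between lines, so the opposite direction of SEM counts as residual spread. The fit therefore cannot decide whether sh2 and NT differ within a line. By limma on the log2 share of peaks with terms for line and shRNA, 0 of the 25 windows passed an adjusted p of 0.05 for sh2 against NT (background 0% of 592 windows). At an unadjusted p under 0.05 there were 0 of the 25, and 4 of the 592. The window at 50 to 55 Mb of chromosome 17 had -0.52 ± 0.24 (SE) on the log2 scale, with an adjusted p of 0.914 by limma. Of the 25 windows 23 were positive, with a median of 0.11 against -0.01 over all windows. The same fit with equal lists called 0 of the 25 (background 0%).

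In the same fit, contrasts between lines take the sh2 and NT samples of a line as its replicates. Their p measures spread between these samples, not between lines of a genotype, and RCH is a single line. For RCH against RS4;11 and SEM, 0 of the 25 windows passed by limma (background 0.338%), with 2 at an unadjusted p under 0.05. The values were positive in 24 windows, with a median of 0.21, against -0.05 over all windows. The lowest adjusted p by limma was 0.279, at 20 to 25 Mb of chromosome 17 (0.79 ± 0.29, SE), where RCH had 38 and 35 peaks with sh2 and 47 and 41 with NT, SEM 26 and 24 with sh2 and 27 and 26 with NT, and RS4;11 32 and 29 with sh2 and 43 and 36 with NT. In windows of 2 Mb, 1 of 58 member windows passed by limma, at 70 to 72 Mb of chromosome 17 (0.95 ± 0.14, SE, adjusted p = 0.0468). Of 1434 such windows of the genome 0.349% passed, and in windows of 10 Mb 0 of 14 member windows passed. For RS4;11 against SEM, 0 of the 25 passed by limma (background 0.169%), with 2 at an unadjusted p under 0.05. The median was -0.24, against 0.03 over all windows. With equal lists 0 of the 25 passed by limma in either contrast between lines, at a background of 0.508% for RCH against RS4;11 and SEM and of 0.508% for RS4;11 against SEM.

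The next question was which single regions were open with 1 shRNA only. A region was called sh2-only where both sh2 lists and no NT list of the line had a peak, and NT-only in the reverse case. In RS4;11, 61 members were sh2-only and 145 NT-only of 3704 open in the line, that is 1.65% (background over all chromosomes 0.854%) and 3.91% (background 9.79%). In RCH, 233 were sh2-only and 168 NT-only of 3814, or 6.11% (background 1.9%) and 4.40% (background 10.6%). In SEM, 88 were sh2-only and 192 NT-only of 3995, or 2.20% (background 7.69%) and 4.81% (background 2.59%).

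Among regions of either class, 29.6% were sh2-only in RS4;11 (exact 95% interval 23.5 to 36.4), against 7.58% on the other chromosomes. This share was 58.1% in RCH (53.1 to 63.0), against 13.3%, and 31.4% in SEM (26.0 to 37.2), against 76.4%. Single libraries moved it. In RS4;11 it was 48.8% without sh2 library 1, 46.2% without NT library 1 and 19.4% without NT library 2, and in SEM it was 51.4% without sh2 library 2. In RCH it was 49.3% without NT library 1, 47.6% without NT library 2 and 26.8% with only peaks above the pooled median fold, so that NT-only regions were then more. Within RCH the chromosomes differed, with 91 sh2-only and 34 NT-only regions on chromosome 22 (72.8%) and 142 and 134 on chromosome 17 (51.4%). Many more members had a peak in 1 of the 2 lists of a sample, between 799 and 1056 per sample, which is the scale of the disagreement between libraries.

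With lists of equal length the balance moved toward sh2 in RS4;11 and RCH and toward NT in SEM. RS4;11 had 205 sh2-only and 69 NT-only members (6.09% and 2.05% of those open, backgrounds 3.7% and 6.47%). RCH had 411 and 73 (12.1% and 2.15%, backgrounds 4.9% and 6.71%). SEM had 47 and 339 (1.24% and 8.95%, backgrounds 6.07% and 4.98%). Over all chromosomes the balance of equal lists was the reverse in each line, with 2958 sh2-only and 5172 NT-only regions for RS4;11, 2950 and 4044 for RCH, and 4445 and 3644 for SEM.

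In shortened lists the absence of a peak can mean that a weaker one was removed. Of the 205 sh2-only members of RS4;11, 59 had no NT peak as deposited, 90 had one in 1 NT list and 56 in both. Of the 411 in RCH these were 210, 125 and 76. Of the 339 NT-only members of SEM, 181 had no sh2 peak as deposited, 81 had one in 1 sh2 list and 77 in both. The classes that did not gain from shortening were nearly all without a deposited peak of the other shRNA, 69 of 69 for RS4;11, 71 of 73 for RCH and 47 of 47 for SEM. This follows from the cut, which removed few or no peaks from the lists of that other shRNA.

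By window, sh2-only regions outnumbered NT-only ones in 22 of 25 windows for RCH, 19 for RS4;11 and 1 for SEM with equal lists, against 27.5%, 30.2% and 61.1% of all 592 windows. As deposited these were 16, 5 and 4 windows, against 10.3%, 7.26% and 80.9%. The window at 35 to 40 Mb of chromosome 17 gave 28 sh2-only and 0 NT-only regions of 159 open in RCH, 16 and 0 of 140 in RS4;11, and 0 and 25 of 188 in SEM with equal lists. At 20 to 25 Mb of chromosome 22 RCH had 30 sh2-only and 1 NT-only region of 205 open, RS4;11 9 and 1 of 216, and SEM 0 and 28 of 236. The window at 50 to 55 Mb of chromosome 17 went the other way in RS4;11 and RCH, with 0 sh2-only and 11 NT-only regions of 67 open in RS4;11 and 1 and 10 of 58 in RCH. As deposited it had 0 and 19 of 91 in RS4;11 and 0 and 17 of 72 in RCH.

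**Figure D4:**
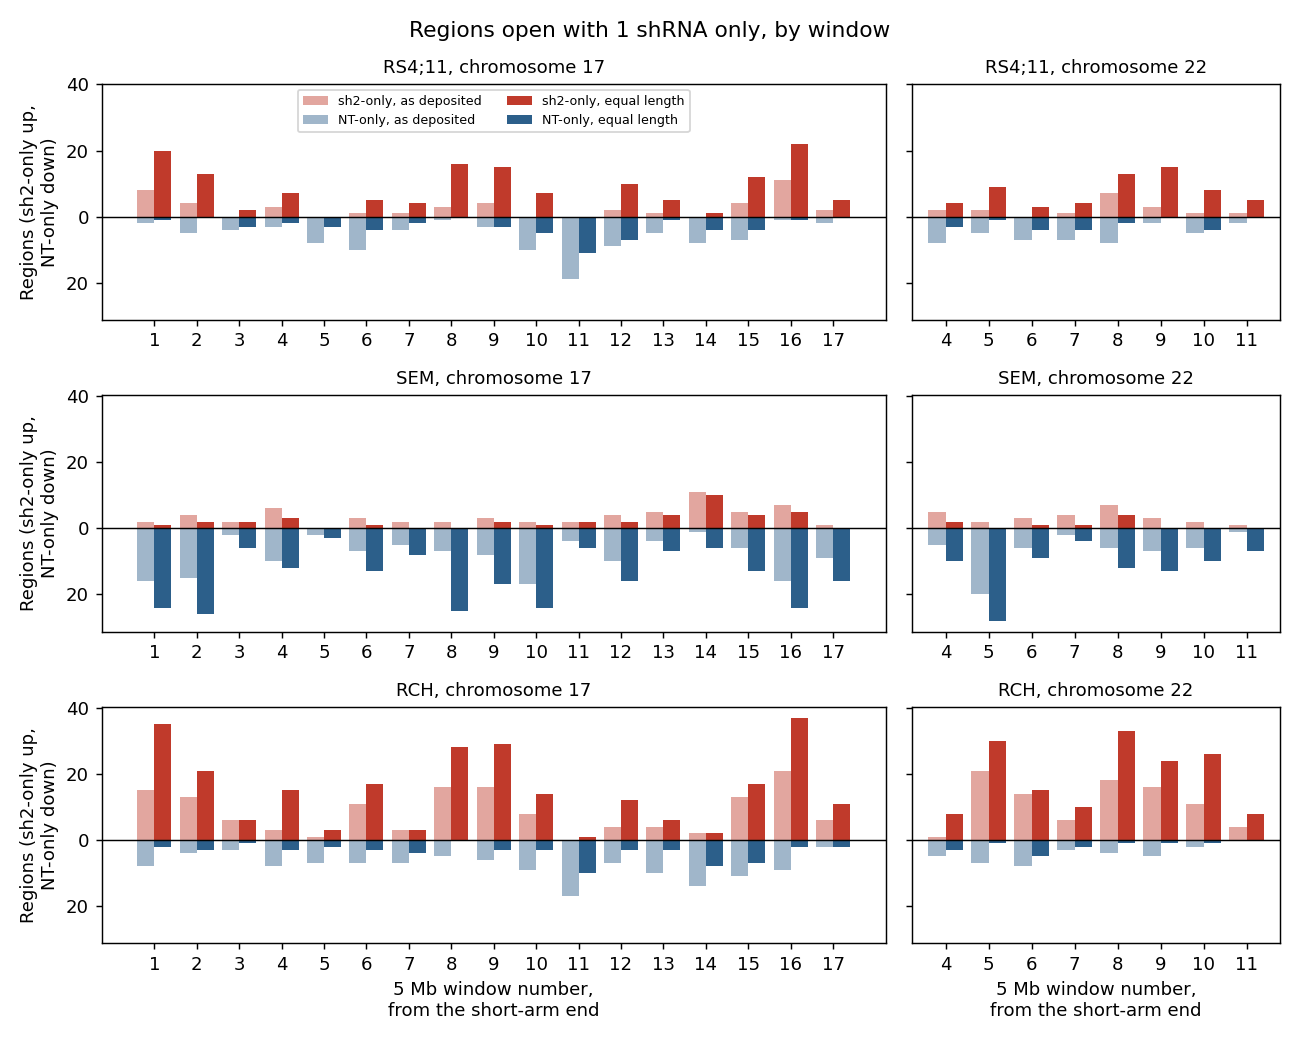
Number of regions (y axis) that were sh2-only (red, up) or NT-only (blue, down) in each 5 Mb window, numbered from the short-arm end (x axis), by line and chromosome, pale for lists as deposited and dark for lists of equal length. With equal lists sh2-only regions are more in 22 of 25 windows of RCH, 19 of RS4;11 and 1 of SEM, and window 11 of chromosome 17 has 11 NT-only regions in RS4;11 and 10 in RCH.

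Few members changed in more than 1 line. As deposited, 7 were sh2-only and 28 NT-only in at least 2 lines, and 0 and 1 in all lines. In at least 2 lines these are 0.126% and 0.503% of all members, against 0.0886% and 1.11% of the regions on the other chromosomes, where 0 and 76 were such in all lines. With equal lists 31 members were sh2-only and 17 NT-only in at least 2 lines (0.557% and 0.305%, against 0.283% and 0.645% elsewhere), and 0 and 0 in all lines (1 and 45 elsewhere). For RS4;11 and RCH with equal lists, 29 members were sh2-only in both and 3 NT-only in both (0.521% and 0.0539%, against 0.166% and 0.346% elsewhere), while 1 was sh2-only in RS4;11 and NT-only in RCH and 9 the reverse (0.0180% and 0.162%, against 0.0239% and 0.0255% elsewhere). For RS4;11 and SEM, 30 were sh2-only in RS4;11 and NT-only in SEM and 1 the reverse (0.539% and 0.0180%, against 0.162% and 0.132% elsewhere). For RCH and SEM these were 33 and 3 (0.592% and 0.0539%, against 0.168% and 0.141% elsewhere).

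The regions with a called peak in every list are the same set in each list, so their order by fold enrichment can be compared between lists. They hold no region that any list lacks. The fold is the authors' value for each peak, and its level is not comparable between lists, so the place of a region was taken as its percentile among the 21535 regions open in all 12 lists. In RS4;11 the 943 such regions of chromosome 17 had mean percentiles of 37.9 and 38.7 with sh2, against 33.0 and 35.3 with NT. In RCH they had 49.6 and 50.1 with sh2, against 39.0 and 38.8 with NT. In SEM they had 43.3 and 42.3 with sh2, against 50.2 and 50.6 with NT. The lists of the shRNAs did not overlap, and the directions were those of the shares.

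The 388 regions of chromosome 22 had 38.5 and 38.2 with sh2, against 36.4 and 36.0 with NT, in RS4;11. In RCH they had 46.0 and 46.8 with sh2, against 33.4 and 32.9 with NT, and in SEM 41.8 and 41.3 with sh2, against 50.6 and 50.5 with NT. The differences were 2.13, 13.2 and -9.04 points in RS4;11, RCH and SEM, and 4.16, 10.9 and -7.64 points on chromosome 17. Over the lines they averaged 2.10 ± 11.1 on chromosome 22 and 2.49 ± 9.40 on chromosome 17 (SD over the 3 lines), each with p = 0.75 by the exact sign-flip test. In fold, the median of these members was 0.850 times that of the regions elsewhere with sh2 and 0.811 times with NT in RS4;11, 1.00 and 0.833 times in RCH, and 0.912 and 1.01 times in SEM.

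By window, the difference in mean percentile was largest in RCH at 40 to 45 Mb (19.1 points, 80 regions) and 0 to 5 Mb (18.4 points, 80 regions) of chromosome 17. In RCH it was negative in 2 windows, at 50 to 55 Mb (-8.03 points, 14 regions) and 55 to 60 Mb (-1.17 points, 70 regions) of chromosome 17. In RS4;11 it was negative in 6 of 25 windows, down to -8.46 points at 20 to 25 Mb of chromosome 17 (15 regions) and -4.12 points at 15 to 20 Mb of chromosome 22 (36 regions). In SEM it was negative in every window, from -0.225 points at 10 to 15 Mb of chromosome 17 to -12.8 points at 25 to 30 Mb of chromosome 22.

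**Figure D5:**
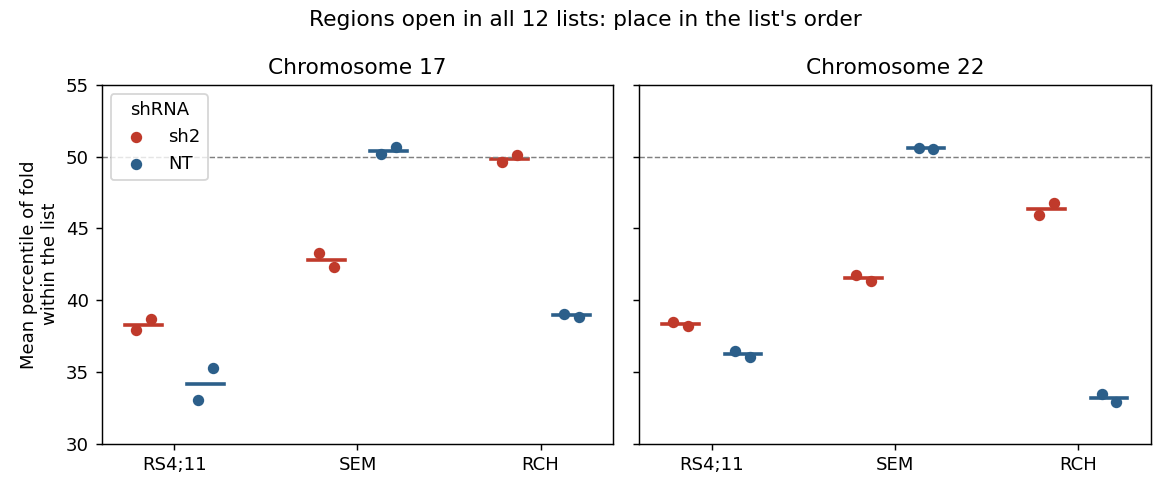
Mean percentile of fold (y axis) of the chromosome 17 (left) and chromosome 22 (right) regions open in all 12 lists, ranked within each list among the 21535 regions of that kind, with 1 point per list, a bar at the mean of the 2 lists and sh2 left of NT. The dashed line marks 50, and the axis does not start at 0. RCH has 49.6 and 50.1 with sh2 against 39.0 and 38.8 with NT on chromosome 17, and SEM 43.3 and 42.3 against 50.2 and 50.6.

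The overlap of peak lists on these chromosomes was measured by the Jaccard index, the bases shared by 2 lists over the bases covered by either. On chromosome 17 it averaged 0.649 between sh2 and NT for RS4;11, 0.557 for RCH and 0.653 for SEM, against 0.668, 0.616 and 0.690 between the 2 lists of a sample. On chromosome 22 these were 0.646, 0.510 and 0.638, against 0.662, 0.570 and 0.662. In SEM on chromosome 22 the ranges met, since the closest sh2 to NT pair had 0.653 and the farther pair of a sample 0.652. On the other chromosomes sh2 and NT averaged 0.612, 0.520 and 0.606, against 0.681, 0.607 and 0.663. These values are for lists as deposited. With lists of equal length sh2 and NT averaged 0.633, 0.532 and 0.626 on chromosome 17, in the same order of lines. On chromosome 22 they averaged 0.639, 0.483 and 0.616, and on the other chromosomes 0.636, 0.544 and 0.603. Chromosome 17 was then above the other chromosomes in SEM only.

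Regions open in all 4 lists of a line and in no list of the others were rare. Values are for lists as deposited unless equal length is named. On chromosome 17 there were 25 for RS4;11 (0.661%), 58 for SEM (1.53%) and 43 for RCH (1.14%). On chromosome 22 there were 28 for RS4;11 (1.57%), 13 for SEM (0.727%) and 19 for RCH (1.06%). On the other chromosomes the shares were 2.08%, 0.943% and 0.879%. With lists of equal length the shares for RS4;11, SEM and RCH were 0.793%, 1.11% and 0.741% on chromosome 17. On chromosome 22 they were then 1.23%, 0.838% and 0.559%, and elsewhere 2.01%, 1.05% and 0.685%. The lines with the KMT2A-AFF1 fusion shared 41 regions on chromosome 17 (1.08%) and 35 on chromosome 22 (1.96%) that had no peak in RCH, against 1.45% elsewhere. The exact interval on chromosome 22 was 1.37% to 2.71%, which includes the share elsewhere. With lists of equal length the shares were 0.873% on chromosome 17 and 1.23% on chromosome 22, against 1.69% elsewhere. RS4;11 and RCH shared 16 (0.423%) and 10 (0.559%), against 0.425% elsewhere. SEM and RCH shared 14 on chromosome 17 (0.370%) and 0 of 1789 on chromosome 22, where the exact interval reaches 0.206%, against 0.360% elsewhere. With lists of equal length they shared 11 (0.291%) and 1 (0.0559%), against 0.349% elsewhere. The exact intervals cover counting error only, treat regions as independent and are not a test.

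Single regions show the range of the values. The region on chromosome 17 from 22020516 to 22020984, in the window with fewest regions, carried the highest fold of each of the 12 lists, 44.02 and 44.19 in RS4;11 sh2 and 43.3 and 43.0 in RS4;11 NT. SEM had 42.8 and 43.1 with sh2 and 43.2 and 43.5 with NT, and RCH 38.6 and 37.9 with sh2 and 39.5 and 39.7 with NT. Next on chromosome 17 were the regions from 31149332 to 31149987, with folds of 21.5 to 26.9 over the 12 lists, and from 33478014 to 33478375, with 18.0 to 30.5. Lists of regions prone to mapping artefacts were not used here, and whether these regions are such was not tested.

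On chromosome 22 the highest of the regions open in all lists ran from 24407350 to 24408210, from 29999142 to 30000162 and from 41681554 to 41682749, with folds of 12.3 to 19.7, 12.3 to 17.4 and 11.1 to 17.3. The widest members, of 2395 bp from 54669898 to 54672292 of chromosome 17 and of 2044 bp from 24551660 to 24553703 of chromosome 22, had low folds, 4.11 to 5.50 and 4.75 to 9.13.

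Among the members open with NT only, the highest ranked in RS4;11 and in RCH lay close together within the window at 50 to 55 Mb of chromosome 17. In RS4;11 it ran from 50769282 to 50769613, with folds of 14.0 and 12.2 in the NT lists, none with sh2, and 1 further peak in RCH NT library 2 (3.92). In RCH it ran from 50867975 to 50868335, with 12.20 and 12.95 in the NT lists and no peak in any other list. A further region of this window, from 50225322 to 50225692, was NT-only in RS4;11 (10.3 and 7.30) and RCH (5.34 and 7.15) and closed in SEM. It ranked highest of the 22 members of chromosome 17 that were NT-only in at least 2 lines. The region from 51169429 to 51169810, also in this window, had no peak in any sh2 list. Its folds with NT were 13.8 and 11.3 in RS4;11, 5.75 and 5.46 in SEM and 4.58 and 6.81 in RCH. It was the 1 member NT-only in all lines as deposited.

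Other regions differed between the lines. On chromosome 22 from 28065264 to 28065797, SEM had folds of 10.4 and 10.8 with sh2 and no peak with NT, whereas RS4;11 had 11.2 and 11.9 with sh2 and 11.2 and 12.03 with NT, and RCH 7.89 and 6.72 with sh2 and 8.85 and 8.30 with NT. On chromosome 22 from 17579229 to 17579799, RCH had no peak with sh2 and 10.7 and 6.91 with NT, and the other lines had a peak in all lists (7.87 to 14.7). On chromosome 17 from 46755770 to 46756101, RCH had 8.45 and 8.57 with sh2 and none with NT, while RS4;11 had peaks with NT only (4.85 and 4.98) and SEM had 7.17 and 4.56 with sh2 and 5.07 in NT library 2.

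Of the sh2-only members in at least 2 lines, the highest on chromosome 22 ran from 37178041 to 37178393. It had 5.68 and 6.55 in RS4;11 sh2 and 6.19 and 5.50 in RCH sh2, with none in their NT lists, and SEM was open there with both shRNAs (8.52 and 5.86 with sh2, 8.54 and 7.45 with NT). On chromosome 17 it ran from 44079883 to 44080257, with 4.62 and 5.17 in RS4;11 sh2 and 4.90 and 5.36 in RCH sh2, and SEM had 6.48 in sh2 library 1 and 5.19 and 5.40 with NT.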

How the data were processed

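ATAC-seq was done on 6 samples with 12 peak lists of 5 columns and no header. Bowtie2, MACS2 and the genome build hg19 are named, per the submitters' processing notes. Their versions and settings, duplicate removal and any shift of reads for the transposase were not given in the sources used here, and whether replicates were pooled before calling is likewise unstated. The fifth column, as deposited by the authors, holds values of 1.60 to 44.2 and was read from them as fold enrichment, a ratio set by the caller within each library and not scaled between lists. Read depth is unknown, so no floor that needs it is given, and the length of a list (41594 to 84794 peaks) can move with depth. The 718792 peaks of the autosomes and X were kept, and 140 others were left out.

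Lists were merged by at least 1 bp of overlap (checked with bedtools), and peaks and regions were placed in 5 Mb windows by midpoint. For equal length, a line's lists were trimmed by fold to its shortest list. Window values for limma were log2 shares of peaks with a pseudocount of 0.5 peaks at the mean list length, averaged over a sample's 2 lists, for windows averaging at least 5 peaks per list, with the sample as the unit, a trended variance prior, and Benjamini-Hochberg adjustment over 592 windows. The cell line pairs the samples, since sh2 and NT of a line are the same line. Over windows, deviations of sh2 and NT of a line from their group means correlated at 0.895 in RS4;11, 0.570 in RCH and -0.008 in SEM. Between lines, RCH sh2 and SEM NT correlated at 0.521 and SEM sh2 and RS4;11 NT at 0.066. The remaining pairs between lines were negative, from -0.759 to -0.106. Deviations of the lines from a group mean sum to 0 in each window, so negative values between lines are partly built in. Steps were tested on simulated data.

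Members and lists were chosen with earlier results of these data known. Windows named were those with most and fewest regions and with the 2 largest and 2 smallest ratios per line, and regions named were the highest by mean fold percentile in their class and the widest. Not every region so named is printed. The text dwells on the windows at 50 to 55 and 65 to 70 Mb of chromosome 17, both named by that rule, after their values were seen. Windows given for their percentiles or their sh2-only and NT-only counts were chosen after these were seen. Intervals are Clopper-Pearson. R 4.3.3 with limma 3.58.1, bedtools 2.31.1 and Python 3.11.15 with scipy 1.17.1, pandas 2.3.3, numpy 2.4.6 and matplotlib 3.10.9 were used.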

Additional observations from a re-analysis of the deposited data

Results flagged for a closer look

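The difference in share between sh2 and NT had opposite signs in SEM and in the other lines, with every sh2 list beyond every NT list in share in each. The differences between lines below were not tested. On chromosome 17 the log2 ratio of the share of peaks, sh2 over NT, was larger in RS4;11 than in SEM by 0.60 as deposited and by 0.62 with lists of equal length, and larger in RCH than in SEM by 0.74 and 0.77. On chromosome 22 it was larger in RS4;11 than in SEM by 0.60 and 0.63, and larger in RCH than in SEM by 0.93 and 1.00.

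The place of the regions open in all 12 lists went the same way. On chromosome 17 the difference in mean percentile, sh2 minus NT, was larger in RS4;11 than in SEM by 11.8 points and in RCH than in SEM by 18.6 points. On chromosome 22 these were 11.2 and 22.2 points.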

How the results depend on the processing

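The mean log2 ratio of the share of peaks, sh2 over NT, kept its sign with equal-length lists, with peaks above the pooled median fold (6.37) alone, and without RS4;11 (0.082 over both chromosomes) or SEM (0.38). Without RCH it was -0.014 on chromosome 17, -0.021 on chromosome 22 and -0.016 on both, each with an exact p of 1. Leaving out the pairing by line (no replicate block) kept the mean over both chromosomes at 0.15, with p = 0.5 by an exact permutation test, and limma without the block called 0 windows for sh2 against NT.

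The sh2-only share of changed members in RS4;11 was 74.8% with equal lists, 60.1% above the median fold and 19.4% to 48.8% with 1 list left out. In SEM it was 12.2%, 25.7% and 25.2% to 51.4%, and in RCH 84.9%, 26.8% and 47.6% to 69.5%. The share of members open in every list was 19.7% with equal lists, 10.2% above the median fold and 10.6% where a peak had to cover 50% of the region. Windows of 2 Mb gave 1 called window of 58 in RCH against RS4;11 and SEM, at 70 to 72 Mb of chromosome 17, and windows of 10 Mb gave 0 of 14. The percentile differences of regions open in every list kept their sign in each line with any 1 list left out, an alternative chosen after seeing the data. With 1 sample per group and line, differences within a line have no replicate check beyond the 2 lists, and peak lists hold no signal below the caller's threshold.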

Other observations

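In lists of equal length, the top and bottom 25% of peaks by fold differed in their share on chromosome 22. In RCH the top 25% held 1.67% and 1.56% with sh2, against 0.712% and 0.769% with NT. The bottom 25% held 2.58% and 2.61% with sh2, against 1.68% and 1.59% with NT. In SEM the top 25% held 1.122% and 1.092% with sh2, against 1.80% and 1.74% with NT.

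As a description over 23 chromosomes that share their lists, Spearman's rho between genes per Mb and the log2 ratio as deposited was 0.870 for RS4;11, 0.900 for RCH and -0.840 for SEM. With the share of regions open in all 12 lists, rho over the 23 chromosomes was 0.934 for RS4;11, 0.925 for RCH and -0.874 for SEM. Over the 25 windows of chromosomes 17 and 22, rho with that share was 0.498 for RS4;11, 0.102 for RCH and -0.452 for SEM.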
